A study of Mus musculus with 6 samples.

Results

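The Skint genes encode a butyrophilin-like family of cell surface proteins, with immunoglobulin-like outer domains and several membrane-spanning segments, that mice express mainly in skin and thymus. Skint1, the founding member, is required in the thymus for the selection of the gamma delta T cells that carry the Vγ5Vδ1 receptor and settle in the epidermis as dendritic epidermal T cells. Skint1 and several relatives are also expressed by keratinocytes of the upper epidermal layers, and the roles of most other members are less well understood. The set described here comprises the rows of 10 named Skint genes, of 11 annotated, among 49452 gene rows. All 10 were present with a single row each, and all 10 entered the fits across genes, for which 1 group or the other had to average 1 FPKM or more. FPKM are fragment numbers scaled to transcript length and library size. Skint7 reached that minimum through the controls alone and Skint11 through the knockout-labelled libraries alone. The members were chosen by family name and selected on FPKM differences between the same groups that were already known, so their levels and differences are a description and carry no test.

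The knockout-labelled libraries, numbered 263, 265 and 266, came from E19.5 C57BL/6 epidermis with the genotype Rictor -/-. The control libraries, numbered 261, 262 and 264, came from epidermis of the same strain and age with the genotype given only as Control, which makes 3 libraries per group. Rictor is a defining subunit of mTOR complex 2, and the series asked how mRNA levels differ without it. No source used here gives the promoter or Cre line behind the deletion, the control alleles or whether each library came from 1 animal. The p-values below therefore measure the spread between these libraries, part of which may be technical.

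Rictor itself stood at 6.83, 7.04 and 6.86 FPKM in the libraries labelled knockout, against 5.63, 6.02 and 4.37 FPKM in the controls. A whole-gene value can keep reads from outside a deleted part, so this does not check the labels, and the libraries are called knockout-labelled throughout. The libraries summed to between 609375 and 672925 FPKM, and their relative depth, read from the spacing of low values, was within 1.21 times that of control 261. Y-linked genes and Xist showed 1 male library among the knockout-labelled and 2 among the controls. The trend of the values with gene length separated the groups: Spearman's rho across genes, which are not independent, was 0.17, 0.19 and 0.26 in knockout-labelled 263, 265 and 266, against -0.01, 0.00 and -0.36 in controls 261, 262 and 264. With an adjustment for length and GC content, the mean log2 difference of the members described below was -0.72, against -0.80 without it. The suprabasal keratins Krt1 and Krt10 stood at 9799.9 FPKM or more in each library, so suprabasal epidermis was present in each. In bulk tissue, fewer cells of a type and less RNA per cell cannot be told apart, here and in every result below.

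Skint9 and Skint1 were by far the most abundant members in both groups. Skint9 (ENSMUSG00000049972) stood at 35.9, 34.8 and 41.1 FPKM in knockout-labelled 263, 265 and 266, against 102, 119 and 118 FPKM in controls 261, 262 and 264. The highest knockout-labelled library thus lay far below the lowest control, and the means of 37.2 ± 3.35 and 113 ± 9.36 FPKM (SD, n = 3 each) were 3.04-fold apart. On the log2(FPKM + 1) scale, which understates the change of low genes, the difference was -1.58 ± 0.09 (SE, knockout-labelled minus control, the direction of every difference below). Skint1 (ENSMUSG00000089773) stood at 20.2, 29.6 and 23.4 FPKM in the knockout-labelled libraries, against 40.7, 39.1 and 46.4 FPKM in the controls. Its groups did not overlap either, and its mean was 1.73-fold lower (log2 difference -0.78 ± 0.14).

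The largest difference in the family was that of Skint10, a close relative of Skint9 by sequence. Skint10 (ENSMUSG00000048766) was at 2.02, 3.17 and 2.77 FPKM in the knockout-labelled libraries, against 9.50, 11.2 and 13.1 FPKM in the controls. Every knockout-labelled value lay below every control value, and the mean was 4.24-fold lower (log2 difference -1.75 ± 0.15). The third gene of the same sequence group, Skint11 (ENSMUSG00000057977), ran the other way. It stood at 2.50, 1.36 and 1.81 FPKM in the knockout-labelled libraries, against 0.627, 0.771 and 0.946 FPKM in the controls. Skint11 was the only member that was higher in all knockout-labelled libraries, 2.42-fold in mean FPKM (log2 difference 0.68 ± 0.17), but it was also the least abundant member in the controls.

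The remaining genes were of moderate to low level. Skint2 (ENSMUSG00000034359), which RefSeq also lists as B7S3, had 2.72, 4.17 and 2.53 FPKM in the knockout-labelled libraries, against 7.71, 7.52 and 11.2 FPKM in the controls. Skint3 (ENSMUSG00000070868) had 8.15, 7.71 and 10.2 FPKM in the knockout-labelled libraries, against 8.87, 9.11 and 9.59 FPKM in the controls. The groups of Skint2 did not overlap (2.81-fold lower, log2 difference -1.25 ± 0.19), whereas Skint3 was the only member whose groups overlapped (log2 difference -0.08 ± 0.10).

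Skint4 (ENSMUSG00000055960) had 3.33, 3.95 and 4.07 FPKM in the knockout-labelled libraries, against 9.05, 9.27 and 8.46 FPKM in the controls, with the smallest spread among the members that were lower (log2 difference -1.06 ± 0.08). Skint7 (ENSMUSG00000049214) had 0.603, 1.33 and 0.916 FPKM in the knockout-labelled libraries, against 2.31, 3.13 and 2.96 FPKM in the controls. Both were lower without overlap, Skint4 2.36-fold and Skint7 2.95-fold (log2 difference -0.97 ± 0.16). Skint5 and Skint6, whose annotated transcripts have 59 and 49 exons, had the smallest log2 differences among the members that were lower. Skint5 (ENSMUSG00000078598) had 1.59, 1.70 and 2.03 FPKM in the knockout-labelled libraries, against 2.46, 3.09 and 4.24 FPKM in the controls. Skint6 (ENSMUSG00000087194) had 3.89, 5.30 and 4.83 FPKM in the knockout-labelled libraries, against 6.90, 7.49 and 8.34 FPKM in the controls. Their groups did not overlap, with log2 differences of -0.60 ± 0.16 for Skint5 and -0.60 ± 0.11 for Skint6. In mean FPKM Skint5 was 1.84-fold and Skint6 1.62-fold lower. By that measure Skint1, at 1.73-fold, differed less than Skint5, so the place of Skint5 depends on the scale.

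**Figure D1:**
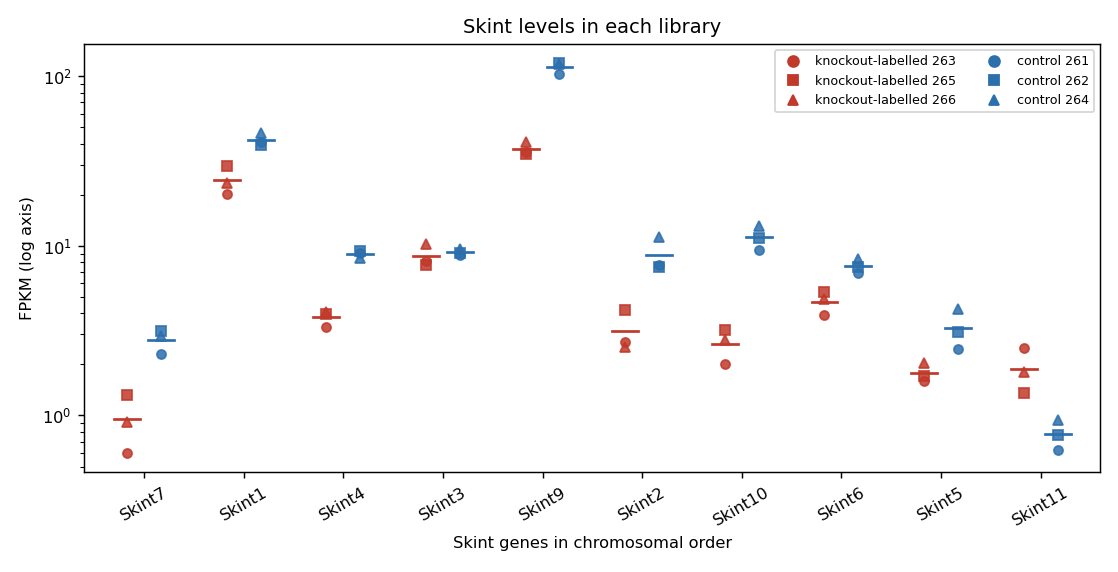
FPKM of the 10 Skint genes in each library on a log axis, in chromosomal order, with knockout-labelled libraries on the left of each pair and controls on the right; points are libraries and bars are group means. For 8 genes every knockout-labelled point lies below every control point, Skint3 overlaps and Skint11 is reversed.

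In all, 8 of the 10 members were lower in the knockout-labelled libraries with groups that did not overlap, and 1 was higher. Among all 13500 genes that met the minimum, 29.2% were lower without overlap and 16.6% were higher. Since the members were assembled from this contrast, nothing is read from these shares. The median log2 difference was -0.87 over the members and -0.06 over all tested genes. Of all genes past limma's adjusted p threshold of 0.05, 33.7% were higher as deposited, against 44.8% with median scaling, 49.8% with trimmed mean scaling, 47.9% with quantile normalization and 50.8% with an adjustment for length and GC content. Under each of these alternatives every member kept the sign of its difference.

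The first and second places in the order of the members by level were the same in both groups, and the places below them were not. Skint9, then Skint1, led in the knockout-labelled libraries and in the controls, and in both groups their ranges overlapped neither each other nor the next gene. Below them the knockout-labelled libraries had Skint3 in the third place, with a range that did not reach that of the fourth gene, Skint6. Skint6, Skint4, Skint2, Skint10, Skint11 and Skint5 followed, each with a range that overlapped that of its neighbour, and Skint7 came last. In the controls Skint10 held the third place, and the ranges of Skint10, Skint3, Skint4, Skint2 and Skint6 overlapped from one to the next. Skint5 and Skint7 also overlapped there, and Skint11 came last.

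Taken as a sum, the 10 genes amounted to 80.8, 93.1 and 93.7 FPKM in knockout-labelled 263, 265 and 266, against 190.4, 209 and 223 FPKM in controls 261, 262 and 264. The mean of 89.2 ± 7.24 FPKM in the knockout-labelled libraries was 42.9% of the 208 ± 16.6 FPKM in the controls (SD, n = 3 each). Skint9 carried much of that sum, and without it the knockout-labelled mean was 54.9% of the control mean. The makeup of the sum differed as well. Skint9 made up 37.4% to 44.4% of it in the knockout-labelled libraries and 52.9% to 56.7% in the controls, while Skint3 made up 8.28% to 10.9% in the knockout-labelled libraries and 4.29% to 4.66% in the controls. Within the groups the members tended to be extreme in the same library: 263 was the lowest knockout-labelled library for 6 of the 10, and 264 the highest control for 7. How often these libraries were extreme over all genes was not computed, and control 264 also had the highest summed FPKM of all libraries (672925).

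The members lie in 1 cluster on chromosome 4 (GRCm38, 111972923 to 114245028, a span of 2272106 bases), in the order Skint7, Skint1, Skint4, Skint3, Skint9, Skint2, Skint10, Skint6, Skint5 and Skint11. No other tested protein coding gene lies between them. Skint9, Skint10, Skint6 and Skint5 are on the minus strand and the others on the plus strand. Skint3, whose groups overlapped, lies between 2 members that were clearly lower, and the member that was higher, Skint11, lies at the far end of the cluster.

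The genes around the cluster were tested, since they are no members. Of the 20 nearest tested protein coding genes, 10 on each side, 3 fell and 1 rose (limma, adjusted p threshold of 0.05, against 15.6% and 7.91% of all tested genes), with a median log2 difference of -0.12. Skint8, the remaining Skint gene, lies 22565 bases before Skint7. It had 0.605, 1.06 and 0.604 FPKM in the knockout-labelled libraries, against 1.68, 1.23 and 1.48 FPKM in the controls, and did not pass (log2 difference -0.49 ± 0.15, limma adjusted p = 0.0522). Skint8 met the minimum through the controls alone, and it passed under 4 of 16 alternatives. On the far side Trabd2b, which encodes a metalloprotease that cleaves Wnt proteins, lies 161696 bases beyond Skint11 and rose by 0.54 ± 0.10 (adjusted p = 0.0111). Slc5a9, a sugar transporter gene beyond Skint8, fell (-0.54 ± 0.12, adjusted p = 0.0206), as did the cell cycle inhibitor gene Cdkn2c (-0.34 ± 0.06, adjusted p = 0.0142) and the ubiquitin ligase gene Rnf11 (-0.34 ± 0.08, adjusted p = 0.0227). Without 263 or without 266, 1 of the 20 neighbours passed in place of 4.

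**Figure D2:**
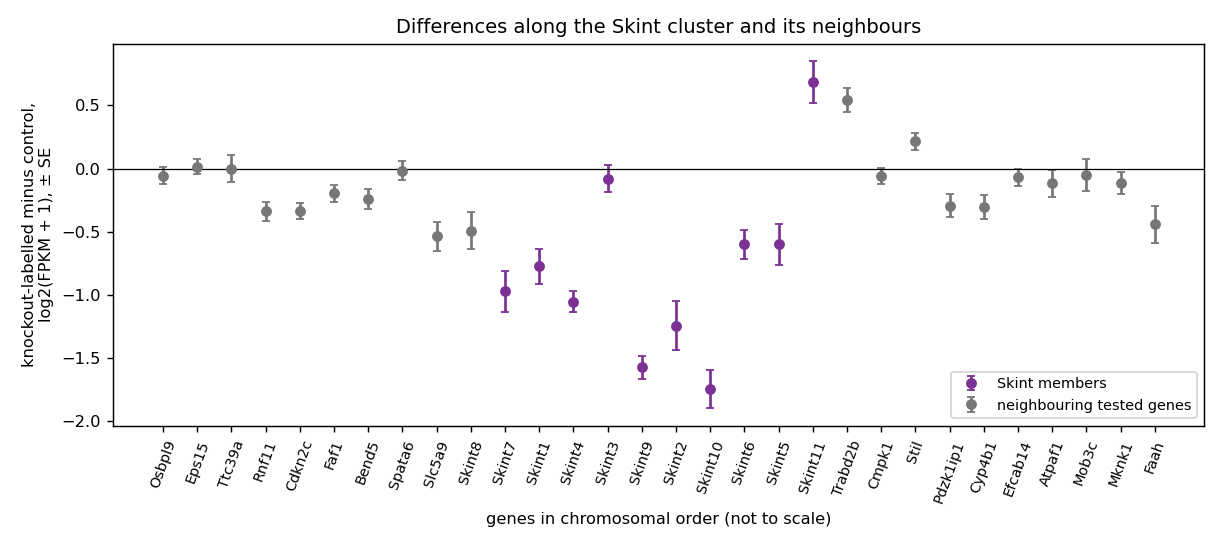
Differences on the log2(FPKM + 1) scale (knockout-labelled minus control, bars ± SE) of the Skint members and of the 10 nearest tested genes on each side, in chromosomal order and not to scale. The members from Skint7 to Skint5 lie below 0, with Skint3 nearest to it at -0.08, and Skint11 at 0.68 lies beside Trabd2b at 0.54.

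By coding sequence the members form 2 blocks and a single gene, set apart here after the alignments were seen. In local alignments of the longest annotated coding sequences, Skint9, Skint10 and Skint11 were 80.2% to 85.8% identical to each other. Skint1 to Skint6 were 71.8% to 84.5% identical among themselves, and Skint7 was 60.9% to 64.1% identical to each of the others. Between the blocks, identity was 59.7% to 65.7% over shorter alignments. Close relatives did not always differ in the same direction. Skint9 and Skint10, at 85.8% identity the closest pair, were both far lower, while Skint11, 82.0% identical to Skint10, was higher. Skint2 and Skint3, at 84.5% identity, likewise had unlike differences. The ratio of Skint3 to Skint2 in FPKM was 2.99, 1.85 and 4.04 in knockout-labelled 263, 265 and 266, against 1.15, 1.21 and 0.855 in controls 261, 262 and 264. The ratio of Skint11 to Skint10 was 1.24, 0.430 and 0.653 in the knockout-labelled libraries, against 0.0660, 0.0691 and 0.0723 in the controls. Neither ratio overlapped between the groups.

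Reads that match several members could be divided among them, and no source used here says how the authors' counting did so. Of the 50-base words of the members' annotated transcripts, at most 6.83% occur in another Skint gene, in Skint7, which shares them mostly with Skint8. The share was 4.64% for Skint6 and 3.97% for Skint5, which share words with each other, and 0.819% for Skint2 and 0.495% for Skint3. No such word of Skint1, Skint4, Skint9, Skint10 or Skint11 occurs in another Skint gene.

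**Figure D3:**
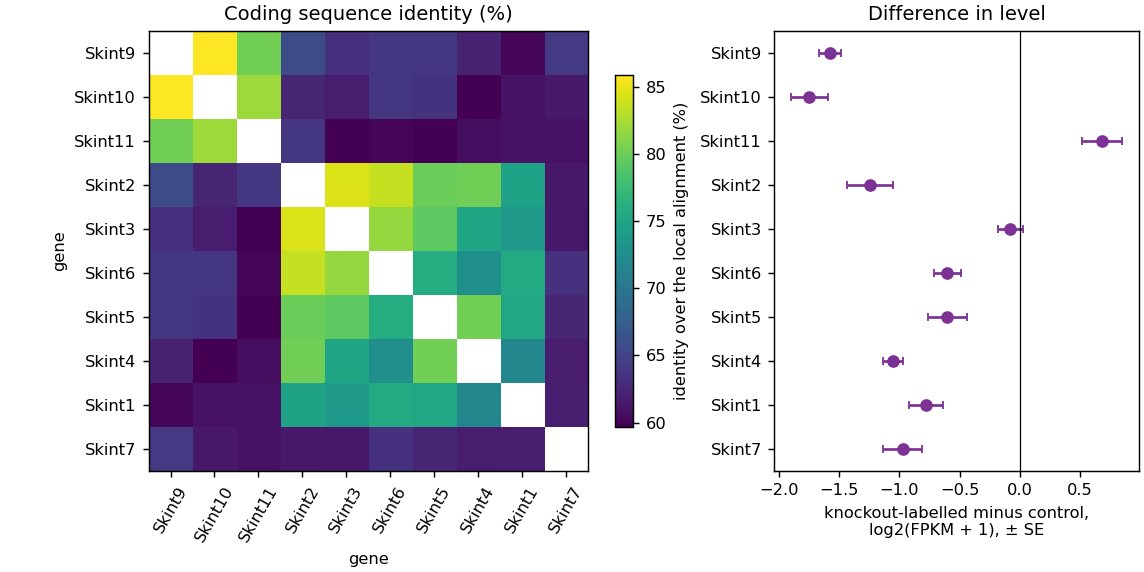
Left, identity of coding sequences over local alignments (%), for each pair of members, with related genes placed together; right, difference of each gene on the log2(FPKM + 1) scale (knockout-labelled minus control, bars ± SE). Skint11 and Skint3 stand apart from the genes most like them in sequence.

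**Figure D4:**
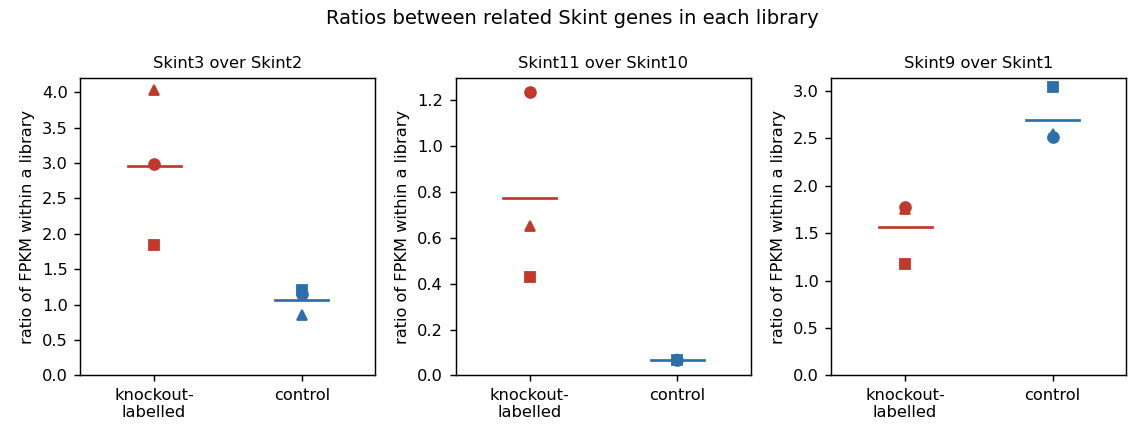
Ratio of FPKM between related or abundant members within each library, knockout-labelled on the left and control on the right; points are libraries and bars are means. The ratios of Skint3 to Skint2 and of Skint11 to Skint10 are higher in each knockout-labelled library than in any control, and that of Skint9 to Skint1 is lower.

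The windows upstream of Skint10, Skint11 and Skint9 are shown because these relatives hold the largest differences in both directions. They run from 250 bases before to 50 bases after the annotated RNA start (RefSeq, GRCm38.p6; 10 of 10 members matched, with 11 windows, Skint4 having a pair of starts). Each is given 5′ to 3′ on the gene's strand, and the capitals mark a 13-base run that only these 3 of 32851 promoter windows hold on either strand. Skint10 lies at chr4:112774812-112775111 (minus strand), Skint11 at chr4:114163134-114163433 (plus strand) and Skint9 at chr4:112433936-112434235 (minus strand).
Skint10: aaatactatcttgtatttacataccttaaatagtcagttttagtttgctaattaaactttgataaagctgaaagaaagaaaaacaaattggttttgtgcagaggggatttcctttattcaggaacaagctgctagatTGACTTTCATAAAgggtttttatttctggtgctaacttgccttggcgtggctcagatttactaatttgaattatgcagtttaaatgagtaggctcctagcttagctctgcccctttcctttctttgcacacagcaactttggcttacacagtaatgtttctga
Skint11: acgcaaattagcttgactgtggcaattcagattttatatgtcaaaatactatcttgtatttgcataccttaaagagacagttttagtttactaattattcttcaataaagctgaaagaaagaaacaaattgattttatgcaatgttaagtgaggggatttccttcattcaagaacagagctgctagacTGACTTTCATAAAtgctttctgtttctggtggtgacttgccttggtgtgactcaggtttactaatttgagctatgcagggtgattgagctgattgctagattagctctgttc
Skint9: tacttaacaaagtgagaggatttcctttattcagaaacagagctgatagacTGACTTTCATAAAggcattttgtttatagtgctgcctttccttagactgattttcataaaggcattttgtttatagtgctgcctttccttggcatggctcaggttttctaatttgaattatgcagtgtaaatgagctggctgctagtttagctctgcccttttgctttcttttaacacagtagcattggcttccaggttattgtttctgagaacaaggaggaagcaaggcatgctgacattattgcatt

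The windows of Skint10 and Skint11 aligned over 256 columns at 82.0% identity, and those of Skint9 and Skint10 over 168 columns at 82.1%. Within the aligned parts, the window of the member that was higher is thus about as close to that of Skint10 as the window of Skint9 is. The alignment of Skint11 with Skint10 covered more of the windows, with 210 matched bases against 138 for Skint9 with Skint10. Skint5 and Skint6, whose differences were alike on the log2(FPKM + 1) scale, had the most similar pair of windows (89.7% over 300 columns). A 14-base run, AGTACTTGAGTAAT, lies in the windows of Skint1, Skint3, Skint5, Skint6 and the second start of Skint4, and in none of the other windows searched on either strand (5 of 32851). It is thus present upstream of Skint3, whose groups overlapped, and of 4 members that were lower. Of 3 known motifs searched on both strands, TATAAA (the letters of the TATA box) lay in 7 of the 11 member windows, against 13.6% of all windows. These letters were counted at any position and in either direction, so the count is not one of TATA boxes. The windows of Skint9 and Skint11 hold them only on the opposite strand, as TTTATA. Several member windows are also alike in sequence, so their matches are not independent. TGANTCA (the AP-1 site) lay in 1, that of Skint11, against 7.81% of all windows, and GTAAACA (a FoxO site) in 0, against 3.65%. A match is no evidence of a bound site, and a missing one says only that these letters are not in the window.

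The genes whose pattern over the 6 libraries was most like the mean pattern of the members were Slc35f5, Mpst, Slc9a9, Cat and Nudt16. Likeness was the root mean square distance between profiles of log2(FPKM + 1), each centred on its own mean, and it was 0.0409 for Slc35f5 and 0.0517 for Nudt16, the first and the fifth of these. For comparison, the single members lay 0.111 (Skint6) to 0.773 (Skint11) from their own mean pattern. Cat, which encodes the peroxide-degrading enzyme catalase, had 35.5, 39.0 and 38.4 FPKM in the knockout-labelled libraries, against 65.7, 65.8 and 76.5 FPKM in the controls. Mpst, a mercaptopyruvate sulfurtransferase gene, had 32.1, 36.0 and 33.2 FPKM in the knockout-labelled libraries, against 55.2, 56.5 and 65.3 FPKM in the controls. These genes were picked for their likeness, so their differences are not tested here.

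The T cells whose selection needs Skint1 leave their own mRNAs in whole epidermis, and those of the receptor and its CD3 complex are given first. Tcrg-V5, the Vγ5 segment of the receptor, stood at 0.694, 0.289 and 1.18 FPKM in the knockout-labelled libraries, against 3.39, 4.93 and 5.13 FPKM in the controls. Trdv4, the Vδ1 segment, stood at 0.906, 0.261 and 0.827 FPKM in the knockout-labelled libraries, against 3.90, 2.18 and 3.37 FPKM in the controls. Cd3g, which encodes a chain of the CD3 signalling complex, stood at 1.23, 0.583 and 1.99 FPKM in the knockout-labelled libraries, against 5.96, 4.21 and 7.22 FPKM in the controls. None of the 3 overlapped between the groups. Tcrg-V5 and Cd3g fell in the limma fit, with log2 differences of -1.69 ± 0.22 (adjusted p = 0.00468) and -1.61 ± 0.26 (adjusted p = 0.00828), and both calls held under each alternative in which the gene was tested. Tcrg-V5 met the minimum through the controls alone. Trdv4 was chosen after its values were seen, so its values are given without a test.

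Of 10 tested genes in the epidermal T cell list of 23, 8 fell and 1 rose, where 15.6% of all tested genes fell and 7.91% rose. The median log2 difference of the 10 was -0.91 against -0.06 over all tested genes. Of the 10, 7 met the minimum only because the controls were high, so this count is not one over the whole list. Without a minimum, 9 of the 23 fell and 1 rose, where 5.58% of all 26987 genes above 0 fell and 724 of the 26987 rose. The count that fell was 4 without control 261, 5 without 263, 5 without 265, and 5 with quantile normalization or a sex term, in place of 8. The summed level of 8 genes of the T cell receptor and CD3 complex was 1.99 to 6.35 FPKM in the knockout-labelled libraries and 15.9 to 22.0 FPKM in the controls, with none of them at 0 throughout. The gene that rose was Thy1, a surface glycoprotein that T cells share with other cell types (log2 difference 1.60 ± 0.18, limma adjusted p = 0.00335). The one that did neither was Lck, a T cell kinase gene, at 3.05 ± 0.243 FPKM in the knockout-labelled libraries and 2.79 ± 0.194 FPKM in the controls (SD, n = 3 each). Whether the Skint levels and the T cell mRNAs bear on each other was not tested.

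**Figure D5:**
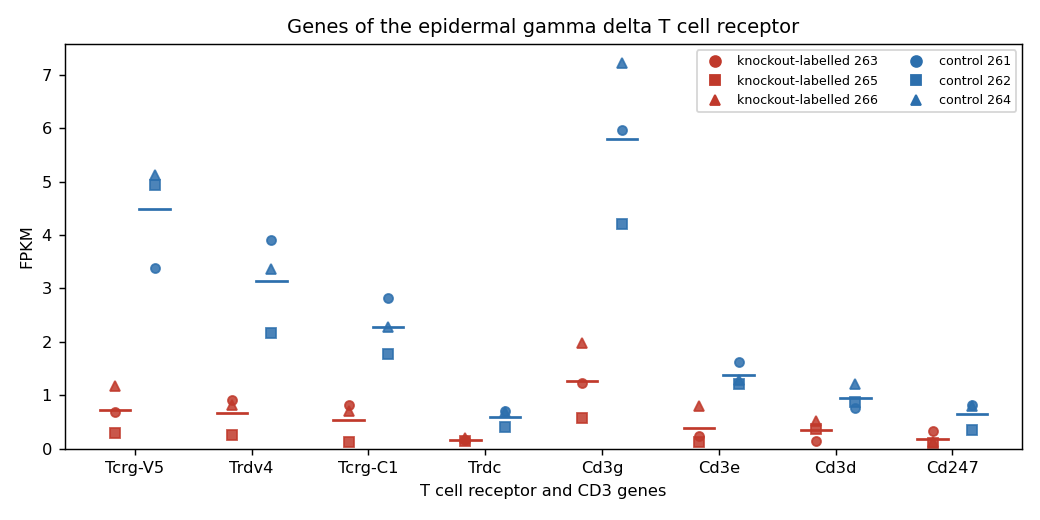
FPKM of genes of the epidermal gamma delta T cell receptor and its CD3 complex in each library, knockout-labelled on the left of each pair and control on the right; points are libraries and bars are means. Tcrg-V5 lies at 0.289 to 1.18 FPKM in the knockout-labelled libraries and at 3.39 to 5.13 FPKM in the controls.

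Keratinocytes also address these T cells through other signals. Of 15 such genes listed, 6 were tested, 2 fell and 0 rose (limma), where 15.6% of all tested genes fell and 7.91% rose. The median log2 difference of the 6 was -0.28. The count that fell was 0 without 263 or 266, and 1 without 261, 264 or 265. Ccl27a, a keratinocyte chemokine that draws T cells to skin, had 34.4, 34.9 and 33.0 FPKM in the knockout-labelled libraries, against 42.5, 46.4 and 53.8 FPKM in the controls (log2 difference -0.46 ± 0.09, adjusted p = 0.0158). H60c, a ligand of the activating receptor NKG2D, had 22.6, 32.8 and 26.8 FPKM in the knockout-labelled libraries, against 36.2, 41.1 and 41.6 FPKM in the controls (-0.53 ± 0.14, adjusted p = 0.0341). Il15, a cytokine on which these T cells depend, did not pass (log2 difference -0.93 ± 0.38, limma adjusted p = 0.122). It met the minimum through the controls alone. Il15 had 0.540, 0.149 and 0.540 FPKM in the knockout-labelled libraries, against 1.68, 0.529 and 3.57 FPKM in the controls, with groups that overlapped. The call of Ccl27a was lost without 263, 265 or 266, and that of H60c without any single library but 265.

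The relatives of the Skint family outside the cluster were at low levels. The 10 listed butyrophilin genes summed to 0.135 to 0.327 FPKM in the knockout-labelled libraries and 0.200 to 0.286 FPKM in the controls, and 0 of them reached the minimum for a test. Of 8 genes of the related B7 family of T cell ligands 4 were tested, 1 fell and 0 rose. Of all tested genes, 15.6% fell and 7.91% rose. Among the 4, Vtcn1 met the minimum through the controls alone. Their median was 0.01, and its sign changed with a smaller pseudocount, no minimum, array weights or without 262, 263 or 265. The one that fell was Vsir (-0.46 ± 0.12, limma adjusted p = 0.0385), the checkpoint ligand VISTA, whose call was lost under 10 of 16 alternatives, among them each scaling and the loss of any single library but 265. Icosl, the ligand of ICOS, differed by 0.58 ± 0.18 and Cd276 by 0.37 ± 0.13 without passing (adjusted p = 0.0597 and 0.0800).

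The layers and other cells of the epidermis are set beside the Skint values, since these genes are expressed in suprabasal keratinocytes. Beside the counts below, 15.6% of all tested genes fell and 7.91% rose. Of 11 tested suprabasal keratinocyte genes 2 fell and 0 rose (median -0.18), a share near that of all genes, and the 5 defining markers summed to 25024 to 26393 FPKM in the knockout-labelled libraries and 27024 to 29820 FPKM in the controls. The count was 0 without 261, 263 or 266, 1 without 262 or 265 and 4 without control 264. The 2 were Calml3 (-0.48 ± 0.11, limma adjusted p = 0.0212) and Dsg1a (-0.33 ± 0.09, adjusted p = 0.0465), while Krt77 differed by 1.12 ± 0.35 (adjusted p = 0.0593). Per 100 FPKM of Krt10, Skint9 stood at 0.320, 0.314 and 0.343 FPKM in the knockout-labelled libraries, against 0.807, 0.910 and 0.908 FPKM in the controls. Skint1 stood at 0.180, 0.267 and 0.195 FPKM per 100 of Krt10 in the knockout-labelled libraries, against 0.321, 0.299 and 0.357 FPKM in the controls. Neither overlapped between the groups, so both were lower also relative to Krt10. That holds for this 1 reference gene, and ratios to other suprabasal genes are not given. Lor, for example, varied more and overlapped between the groups. It had 2972, 3964 and 2891 FPKM in the knockout-labelled libraries, against 4524, 5201 and 2914 FPKM in the controls. Whether the composition of the suprabasal layers bears on these ratios was not tested.

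Of 9 tested basal keratinocyte genes 5 rose and 1 fell (median 0.47), led by Krt14 (1.20 ± 0.14, limma adjusted p = 0.00373), the basal keratin, and the integrin subunits Itgb4 (0.85 ± 0.13, adjusted p = 0.00640) and Itga6 (0.77 ± 0.12, adjusted p = 0.00672). The one that fell was Krt15, another basal keratin, at 982 ± 122 FPKM in the knockout-labelled libraries and 1621 ± 234 FPKM in the controls (SD, n = 3 each), named after its values were seen. The 4 defining basal markers Krt5, Krt14, Col17a1 and Itgb4, without Krt15, summed to 10716 to 12781 FPKM in the knockout-labelled libraries and 6029 to 6998 FPKM in the controls. Of 10 tested Langerhans and myeloid genes 7 fell and 0 rose (median -0.51), among them Csf1r (-0.69 ± 0.07, adjusted p = 0.00238), a growth factor receptor of these cells, the complement gene C1qa (-0.82 ± 0.12, adjusted p = 0.00709) and Lyz2 (-0.56 ± 0.12, adjusted p = 0.0173). The myeloid count was 2 without 263, 265 or 266, 3 without control 261 and 4 without control 264. The 6 defining myeloid markers summed to 24.4 to 26.7 FPKM in the knockout-labelled libraries and 35.9 to 45.2 FPKM in the controls. Among them was Cd207, the langerin gene of Langerhans cells, which did not reach the minimum for a test. It had 0, 0 and 0.116 FPKM in the knockout-labelled libraries, against 0.0525, 0 and 0 FPKM in the controls. The myeloid counts therefore do not describe Langerhans cells in particular.

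Of 6 melanocyte genes 4 fell and 0 rose (median -0.51), including Mlana (-0.57 ± 0.08, limma adjusted p = 0.00618), Dct (-0.56 ± 0.11, adjusted p = 0.0138) and Pmel (-0.49 ± 0.10, adjusted p = 0.0155), and 1 fell without 265 or without 266 and 2 without control 261. The 5 defining melanocyte markers summed to 264 to 296 FPKM in the knockout-labelled libraries and 351 to 437 FPKM in the controls. Of 4 tested fibroblast genes 2 rose and 0 fell (median 0.71), the collagens Col1a1 (0.87 ± 0.20, limma adjusted p = 0.0251) and Col1a2 (0.56 ± 0.12, adjusted p = 0.0184), with 0 without control 261 or 262 and 1 without 263 or 265. Col3a1 (0.86 ± 0.28, limma adjusted p = 0.0708) and Dcn did not pass, and Dcn stood at 111 ± 18.2 FPKM in the knockout-labelled libraries and 105 ± 13.5 FPKM in the controls (SD, n = 3 each). The 5 defining fibroblast markers summed to 124 to 158 FPKM in the knockout-labelled libraries and 114 to 142 FPKM in the controls. The 4 endothelial genes summed to at most 0.716 FPKM in any library and were not tested. Of 14 tested genes of the mTOR complex 2, AKT and FoxO pathway 1 fell, the complex subunit Mlst8 (-0.26 ± 0.06, limma adjusted p = 0.0266), and 1 rose, the FoxO-responsive Trib1 (0.32 ± 0.09, adjusted p = 0.0400), with a median of -0.05 that turned to 0.02 with trimmed mean scaling. Neither share exceeded that of all tested genes. Without control 264, 4 of these genes fell and 2 rose. Akt1 differed by 0.21 ± 0.07 without passing (limma adjusted p = 0.0673). It passed, as higher, under 6 of 17 alternatives, among them each scaling and the length and GC adjustment. The call of Mlst8 was lost without any single library but control 264, and that of Trib1 without 261, 262, 263 or 265. Both were also lost with no minimum or a sex term, and that of Mlst8 with trimmed mean scaling or quantile normalization. The part of other cell types, or of the balance between basal and suprabasal cells, in the Skint values was not tested.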

How the data were processed

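RNA was extracted from separated epidermis with a QIAGEN RNeasy Mini Kit and sequenced from Illumina libraries, per the labels' protocols. The submitters' processing notes name CASAVA, Cufflinks and GRCm38 without versions. No source used here names the aligner, the annotation, the strandedness or the RNA selection. Per the file headers, the authors deposited FPKM as 1 table with a column per library. It holds 49452 gene rows, 22449 of them at 0 throughout. No read counts were used, so no counting error was derived.

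Symbols, positions and lengths came from GENCODE M21 (49109 identifiers matched, 343 not), keeping the highest-mean row per symbol (66 rows left out). Genes averaging 1 FPKM or more in 1 group or both were fitted with limma 3.58.1 (R 4.3.3) on log2(FPKM + 1), with an intensity trend, 3 libraries per group and no covariates. P-values are two-sided and Benjamini-Hochberg adjusted over 13500 genes, with a threshold of 0.05. Members and lists were chosen with earlier results of these data known, and no list was tested as a set.

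The rule for named genes took all members, Rictor, the 3 members of each list with the smallest p, the called neighbours and those that flank the cluster, and the 5 genes of most similar pattern. Trdv4, Lck, Krt15 and Dcn fall outside it and were chosen with their values known. Alternatives were pseudocounts of 0.1 and 5, no minimum and a minimum of 5 FPKM, 3 scalings, 2 variance models, a sex term, a length and GC adjustment, summing rows of a symbol and leaving out each library. Alignments used Biopython 1.88, and figures matplotlib 3.10.9 in Python 3.11.15.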

Additional observations from a re-analysis of the deposited data

How the results depend on the processing

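No paired analysis was made, because no label used here pairs a knockout-labelled library with a control. The library numbers differ for every library, which does not show whether a pairing exists. None of the 10 members changed sign under any alternative. Their mean log2 difference was -0.80, against -0.55 with a pseudocount of 5 and -1.01 over the 7 members with a mean of at least 5 FPKM. It ran from -0.86 to -0.73 with each library left out, and the other settings moved it by less than the spread between libraries (SD 0.12). Array weights gave 6272 called genes over the table, 55 on the comparison lists and 12 neighbours, in place of 3169, 35 and 4. A sex term gave 1852 called genes and 22 on the lists, and no minimum gave 21 on the lists. Leaving out each library gave 1365 to 3744 called genes, 15 to 35 on the lists and 1 to 5 neighbours. The count of 3744 called genes came without control 264 and exceeded the 3169 with all libraries. The causes of these changes in the counts were not tested. Summing rows of a symbol changed nothing, as each member has 1 row. With 3 libraries per group and no counts, small differences such as that of Skint3 could not be resolved.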
